A study of Homo sapiens with 6 samples.

Results

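The translation initiation and elongation factors were taken as the protein-coding genes whose symbol begins with EIF1 to EIF6 or with EEF1 or EEF2, without the eIF2α kinases, the factor methyltransferases and *EEF1E1*. This rule gave 60 of the 58735 genes in the table, and 57 of them passed the filter on low counts. The series holds 6 RNA-seq libraries of H2452, a cell line from a pleural mesothelioma, with 3 for each of its groups, sgCtrl and sg*NF2*-1. The sgCtrl cells carried Cas9 with a scrambled guide and are labelled wild type, and the sg*NF2*-1 cells carried Cas9 with 1 guide against *NF2*, the gene for the Hippo pathway regulator merlin, and are labelled *NF2* knockout. Both groups received the same lentiviral vector, in which an SFFV promoter drives Cas9, and were sorted for its mCherry marker. The sg*NF2*-1 cells are thus a sorted pool that rests on a single guide in a single line. No source states whether the 3 libraries of a group came from separate cultures, so p-values measure only the spread between these libraries.

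Initiation factors bring the small ribosomal subunit, the initiator tRNA and the mRNA together, and elongation factors then move tRNAs and the ribosome along the coding sequence. eIF2 delivers the initiator tRNA and is recharged with GTP by eIF2B, while eIF3 holds the small subunit and the cap-binding complex of eIF4E, eIF4G and eIF4A recruits the mRNA. The 4E-binding proteins compete with eIF4G for eIF4E, and the kinase mTORC1 releases them from it. Many mRNAs for elongation factors and eIF3 subunits begin with a C and a run of pyrimidines, the TOP motif, through which mTORC1 and LARP1 control their translation.

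Total counts ranged from 14782423 to 17416463 per library. *NF2* itself was lower in every sg*NF2*-1 library, with means of 71.4 ± 3.36 CPM in the control and 44.2 ± 6.77 CPM in the knockout pool (SD, n = 3), where CPM is a gene's count scaled to the TMM-adjusted library size. Of 11 mesothelial markers, 9 had more than 10 counts, with a summed level of 738 to 825 FPKM in sgCtrl and 634 to 767 FPKM in sg*NF2*-1. The mesothelial sum was almost all *KRT8*, *KRT18* and *KRT19*, and each of the other markers was far lower, with *UPK3B*, *LRRN4* and *KRT5* lowest. The markers did not move together. The means of *KRT18*, *MSLN* and *BNC1* were higher in sg*NF2*-1, and those of *KRT8*, *KRT19*, *PDPN*, *CALB2* and *WT1* were lower. The leukocyte marker *PTPRC* and the fibroblast markers *DCN* and *LUM* were at 0 in every library. The summed level of 4 fibroblast markers was 0.677 to 0.937 FPKM in sgCtrl and 0.0706 to 0.134 FPKM in sg*NF2*-1, and that of 3 endothelial markers 0.771 to 1.09 and 0.258 to 0.445 FPKM. The lower fibroblast sum came almost wholly from *COL1A1*, and the lower endothelial sum almost wholly from *PECAM1*, while the mean of *CDH5* was higher in sg*NF2*-1. Each of these sums thus follows a single gene and does not show a shift of its whole marker set. The part of these differences in the results was not tested.

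Translation factor transcripts were more often higher than lower in the sg*NF2*-1 cells. By edgeR's quasi-likelihood test with Benjamini-Hochberg adjustment over all 14179 tested genes, 25 of the 57 factors rose and 6 fell at an adjusted p under 0.05, against a background of 17.7% of all tested genes higher and 16.6% lower. The median log2 fold change of the 57 factors was 0.21, and that of all tested genes was -0.0025. The largest rise was that of *EIF4EBP1*, which encodes the cap-complex inhibitor 4E-BP1, and the largest fall was that of its paralogue *EIF4EBP2*. Most other changes were small, since 18 of the 25 risen factors and 5 of the 6 fallen ones changed by less than 0.5 on the log2 scale. In bulk RNA, a different number of cells with a transcript and a different amount of it per cell cannot be told apart.

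The groups were apart for most factors. All 3 sg*NF2*-1 libraries lay above all 3 sgCtrl libraries for 32 factors, against 23.2% of all tested genes, and below them for 6, against 22.2% of all tested genes. The study's own limits ask for an unadjusted p under 0.05 and a change of more than 0.5 on the log2 scale. With these limits, 7 of the 57 tested factors were higher (background 9.22%) and 1 was lower (background 10.8%). The share of higher factors was thus little above that of all tested genes, and the share of lower ones was below it. The count of 7 became 13 without sgCtrl replicate 3 and 11 without sg*NF2*-1 replicate 1, and the single lower factor became 2 without sgCtrl replicate 1 or 2. The count of 6 fallen factors became 3 without sgCtrl replicate 1, sgCtrl replicate 2 or sg*NF2*-1 replicate 1, and 2 without sg*NF2*-1 replicate 2. The shares of all tested genes called in these refits are not given here, so the shifts may not be particular to the factors. sgCtrl replicate 3 was the highest sgCtrl library for 38 of the 57 tested factors and for 21 of the 25 risen ones. The share over all tested genes is not given here. Without sgCtrl replicate 3 the median log2 fold change of the factors was 0.29.

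As a share of all counts, the 60 factors took 3.22%, 3.13% and 3.45% in sgCtrl replicates 1 to 3 and 4.06%, 4.01% and 4.17% in sg*NF2*-1 replicates 1 to 3. *EEF1A1* alone held 1.77% to 2.06% in sgCtrl and 2.26% to 2.36% in sg*NF2*-1, and the other factors together 1.37% to 1.39% and 1.73% to 1.81%. Both shares were therefore higher in every sg*NF2*-1 library than in any sgCtrl library. The difference in the share of all factors was 0.32 on the log2 scale. A two-sided exact permutation test gave p = 0.10, below which 3 against 3 libraries cannot go, and 0.30 after adjustment over 6 such comparisons.

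**Figure D1:**
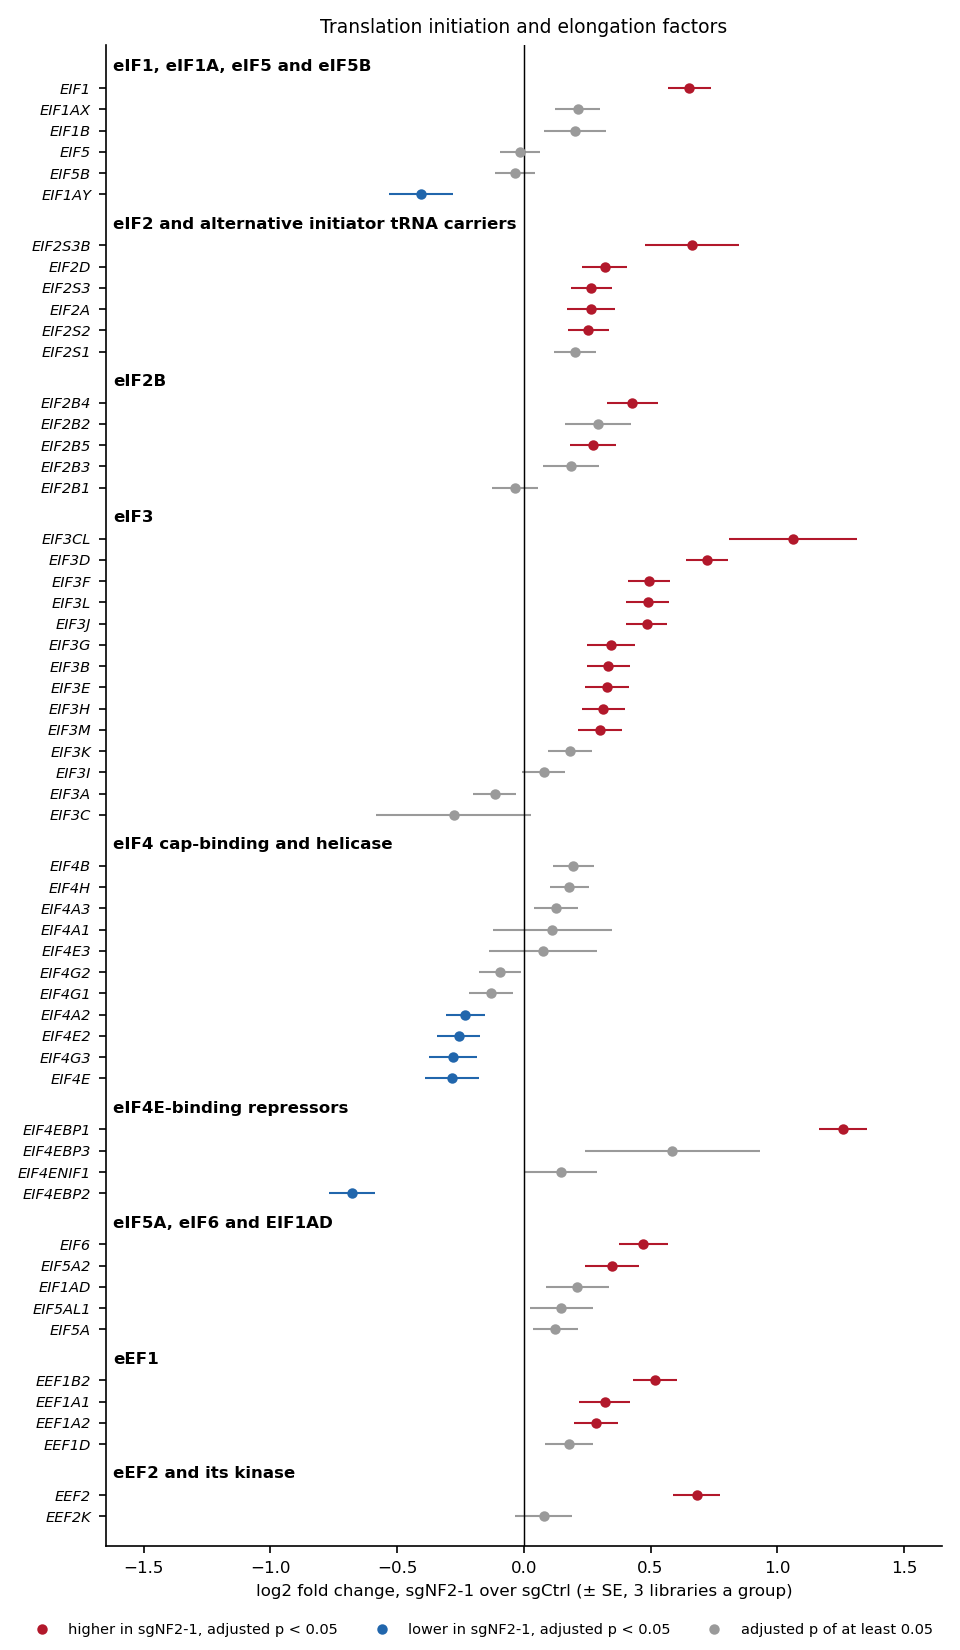
Log2 fold change (sgNF2-1 over sgCtrl, x axis) with its standard error for the 57 tested translation factors, grouped by role, from 3 libraries a group. EIF4EBP1 (1.26) and EIF3CL (1.06) lie farthest to the right and EIF4EBP2 (-0.68) farthest to the left, and 10 of 14 eIF3 genes are called higher.

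The annotated starts of the called factors are shown because the pyrimidine run of a TOP mRNA can be read in them. A start was called TOP-like where the RefSeq transcript (GRCh38.p14) begins with a C followed by at least 4 pyrimidines, a rule chosen after the expression values were known. Of the 60 factors, 50 were in the RefSeq table, and these included 17 of the 25 risen factors. *EIF4EBP1*, *EIF3CL*, *EIF3L*, *EIF3G*, *EIF3E*, *EIF3H*, *EEF1A2* and *EIF2S2* also rose but had no start listed there. Their kind of start was therefore not read. Where a gene had several listed starts, 1 such start was enough, and *EEF1B2* and *EIF2S3B* each also have a listed start without the pattern. In the windows below, 20 bases precede the start and 10 follow it, on the strand of the gene, and capitals mark the pyrimidine run.
EIF3D (chr22:36529157-36529186, minus strand): ccgctgcgcgcgcatgtttcCTCTTTTCCT
EEF2 (chr19:3985454-3985483, minus strand): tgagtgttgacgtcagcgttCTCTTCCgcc
EIF2S3B (chr12:10505870-10505899, plus strand): cagccggggtgactttcttcCTCTTTTggc
EEF1B2 (chr2:206159875-206159904, plus strand): attttccggtctcttcgggtCCTTTTTCCT
EIF3F (chr11:7987317-7987346, plus strand): gtcatttccgcttccgcctcCTTCTTTCTC
EIF2D (chr1:206612456-206612485, minus strand): gccctggtttccagccgggcCCTTTTCgcg
EEF1A1 (chr6:73521023-73521052, minus strand): cagtagtcgccgtgaacgttCTTTTTCgca
EIF3M (chr11:32583811-32583840, plus strand): gcgtcgcgcggcccagttccCTTTTCCggt
EIF2S3 (chrX:24054936-24054965, plus strand): cagccggggtgatttccttcCTCTTTTggc
EIF2A (chr3:150546767-150546796, plus strand): aactctcacccgagcggtttCTCTTTCCgg
EIF4A2 (chr3:186783557-186783586, plus strand): gggtggttgggcgccgctgtCTTTTCagtc

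The 4 called factors with the largest changes whose listed start lacks the pattern are shown in the same window, with the start base in capitals.
EIF4EBP2 (chr10:70404125-70404154, plus strand): tctggctcccgccttcgcccGcttccggtc
EIF1 (chr17:41688865-41688894, plus strand): aacacaggcaccgcccctctGccccagtca
EIF3J (chr15:44537127-44537156, plus strand): tgactcacctccgccgtgctAactcctcgc
EIF6 (chr20:35284708-35284737, minus strand): actggttacttggtaagctgGtgtgagggg

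A TOP-like start was listed for 13 of the 50 factors (26%) and for 7.50% of the tested genes in the table. All 13 were tested, and 10 of them rose (*EIF3D*, *EEF2*, *EIF2S3B*, *EEF1B2*, *EIF3F*, *EIF2D*, *EEF1A1*, *EIF3M*, *EIF2S3* and *EIF2A*). *EIF4A2* fell, and *EIF3K* (log2 fold change 0.18) and *EIF4B* (0.20) did not pass the test. Of the 34 tested factors whose listed start was not TOP-like, 7 rose (20.6%) and 5 fell (14.7%). These shares were near the 18.5% higher and 17.8% lower among the 9291 tested genes of this kind. The risen factors without a listed start, *EIF4EBP1* among them, are in neither group, so these shares cover only part of the risen factors. The median log2 fold change of the factors was 0.32 with a TOP-like start and 0.13 without, a difference that was not tested. Among all 753 tested genes with such a start, 25.1% rose and 13.8% fell, with a median of 0.07, and among the 692 that are neither translation factors nor ribosomal proteins 22.3% rose and 14.9% fell. A TOP-like start is read from a RefSeq transcript and not from these libraries, which give no start sites.

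**Figure D2:**
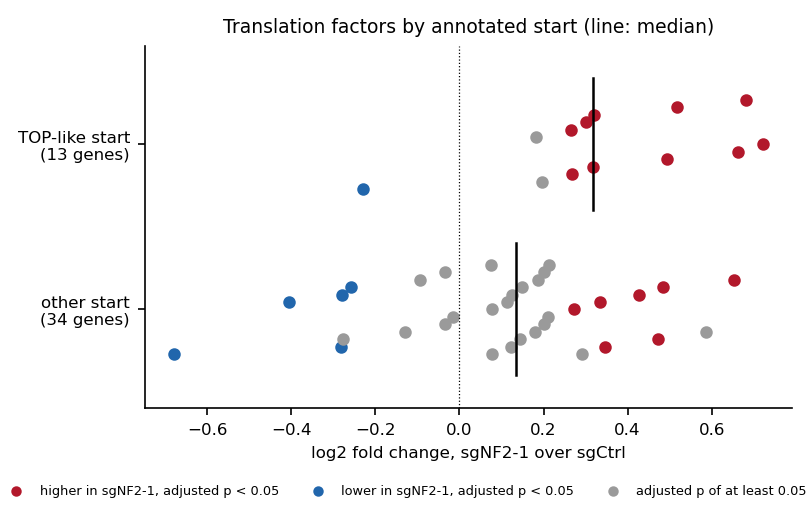
Log2 fold change (sgNF2-1 over sgCtrl, x axis) of 47 tested translation factors with a RefSeq start, in 2 rows by whether the start is TOP-like; points are genes, spread vertically for sight, and lines are medians. The TOP-like row has its median at 0.32 and 1 gene below 0, EIF4A2, and the other row has its median at 0.13.

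Of the 6 genes for scanning, start codon choice and subunit joining, *EIF1* rose, *EIF1AY* fell and the other 4 did not pass the test. *EIF1* (ENSG00000173812), whose product opens the small subunit for scanning and rejects poor start codons, was at 995, 929 and 943 CPM in sgCtrl and at 1430.0, 1545 and 1534 CPM in sg*NF2*-1. The groups were far apart relative to their spread. Its log2 fold change was 0.65 (SE 0.08, adjusted p = 1.2e-06), and it was called in all 16 alternative analyses. The log2 fold changes of its paralogue *EIF1B* (0.20), of *EIF1AX*, the eIF1A gene on the X chromosome (0.21), of *EIF5*, the GTPase activator of eIF2 (-0.02), and of *EIF5B*, which joins the subunits (-0.04), did not pass the test. *EIF1AY*, the eIF1A gene on the Y chromosome, fell by 0.41 on the log2 scale (SE 0.13, adjusted p = 0.014). This call was lost in 5 of 16 alternative analyses, with -0.38 without sgCtrl replicate 2, -0.33 without sgCtrl replicate 3 and -0.30 without sg*NF2*-1 replicate 2.

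**Figure D3:**
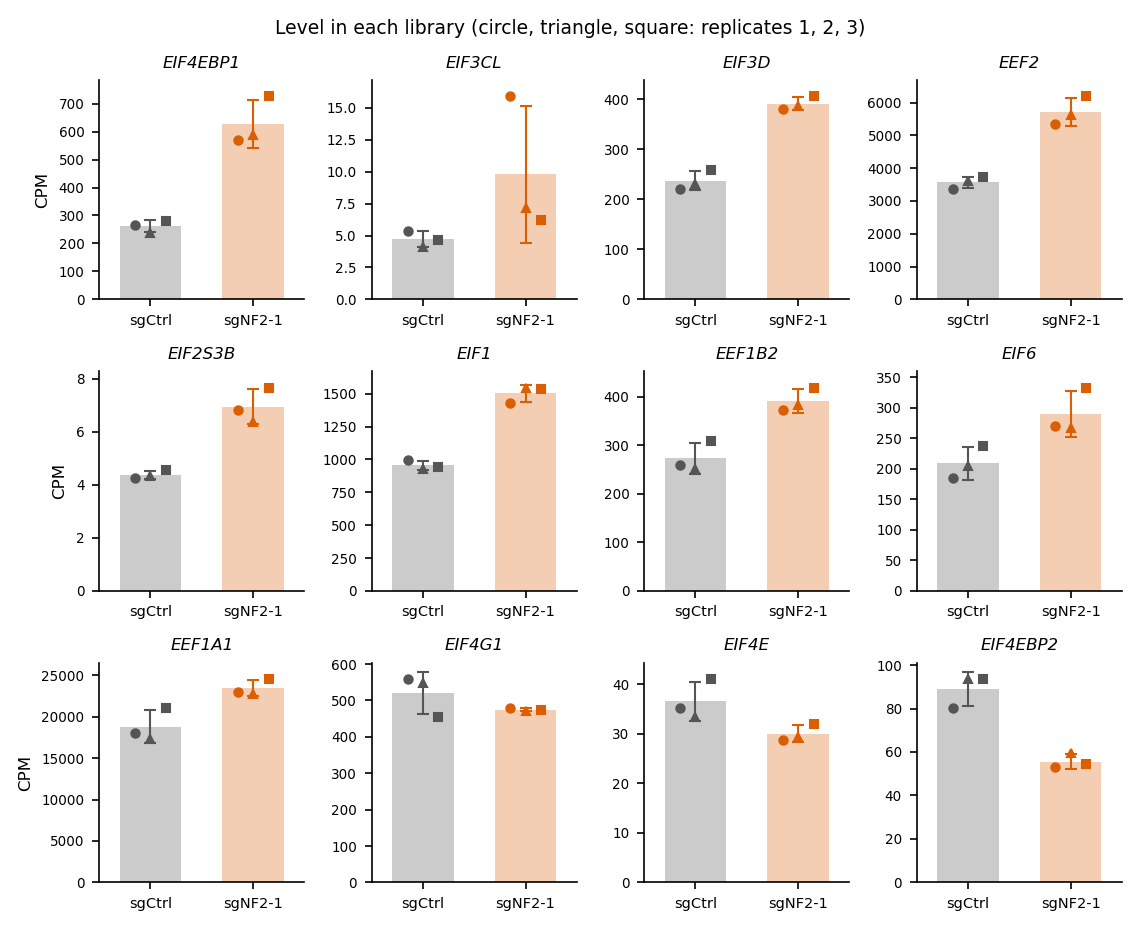
Level in CPM (y axis, from 0) of 12 translation factors in each library, with circles, triangles and squares for replicates 1, 2 and 3, bars for group means and error bars for the SD of 3 libraries. The sgNF2-1 points lie above all sgCtrl points from EIF4EBP1 to EEF1A1, and below them for EIF4E and EIF4EBP2. The EIF4G1 groups overlap.

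Of the 6 genes of eIF2 and the other carriers of initiator tRNA, 5 rose and none fell (83.3% higher, against 17.7% of all tested genes). The γ subunit gene *EIF2S3* was at 267, 265 and 279 CPM in sgCtrl and at 338, 332 and 305 CPM in sg*NF2*-1 (log2 fold change 0.27, SE 0.08, adjusted p = 0.011). The β subunit gene *EIF2S2*, the member of this group with the highest FPKM, was at 231, 208 and 241 CPM against 261, 271 and 280.0 CPM (0.25, SE 0.08, adjusted p = 0.017). *EIF2S1*, for the α subunit that stress kinases phosphorylate, was at 83.7, 77.9 and 82.0 CPM against 93.1, 89.9 and 97.2 CPM (0.20, SE 0.08, adjusted p = 0.061). The 3 subunit genes thus lay apart in every library, and *EIF2S1* did not pass the threshold. The call of *EIF2S3* was lost in 4 of 16 alternative analyses, with log2 fold changes of 0.25 without sgCtrl replicate 2, 0.24 without sg*NF2*-1 replicate 1 and 0.26 without sg*NF2*-1 replicate 2. That of *EIF2S2* was lost in 3, with 0.20 without sgCtrl replicate 2 and 0.26 without sg*NF2*-1 replicate 2. *EIF2S3B*, a paralogue of *EIF2S3* on chromosome 12, had few reads, with 4.25, 4.33 and 4.55 CPM in sgCtrl and 6.82, 6.35 and 7.65 CPM in sg*NF2*-1 (0.66, SE 0.19, adjusted p = 0.0069). It shares 11.9% of its 100-base words with genes elsewhere, and the start windows of both genes above carry the same pyrimidine run. *EIF2D* (0.32, adjusted p = 0.0062) and *EIF2A* (0.26, adjusted p = 0.031), which can place a tRNA on the ribosome without eIF2, also rose. *EIF2A* was the only called factor whose groups overlapped, and its call was lost in 7 of 16 alternative analyses, 4 of them with a library left out (0.18 to 0.29).

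For eIF2B, the exchange factor that recharges eIF2, 2 of 5 subunit genes rose (40%, against 17.7% of all tested genes) and none fell. *EIF2B4*, for the δ subunit, was at 34.4, 37.0 and 42.3 CPM in sgCtrl and at 49.6, 49.0 and 54.4 CPM in sg*NF2*-1 (log2 fold change 0.43, SE 0.10, adjusted p = 0.0017). *EIF2B5*, for the catalytic ε subunit, was at 53.0, 61.1 and 64.8 CPM against 74.8, 69.2 and 72.0 CPM (0.27, SE 0.09, adjusted p = 0.023). Both were higher in every sg*NF2*-1 library. *EIF2B4* was called in all 16 alternative analyses, and the call of *EIF2B5* was lost in 5, with 0.20 without sgCtrl replicate 1 and 0.25 without sg*NF2*-1 replicate 1. *EIF2B2*, for the β subunit, was at 12.8, 13.1 and 13.6 CPM against 17.0, 14.5 and 16.8 CPM (0.29, SE 0.13, adjusted p = 0.081). *EIF2B3*, for the γ subunit, was at 23.5, 21.9 and 25.8 CPM against 26.4, 26.2 and 28.4 CPM (0.19, SE 0.11, adjusted p = 0.20). These groups did not overlap but missed the threshold. *EIF2B1*, for the α subunit and the member of this group with the highest FPKM, was at 60.0, 55.4 and 60.4 CPM against 58.0, 53.7 and 59.8 CPM, with overlapping groups (-0.03, SE 0.09).

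Of the 14 eIF3 genes, 10 rose and none fell (71.4% higher, against 17.7% of all tested genes), and the median log2 fold change was 0.33. *EIF3D* (ENSG00000100353), whose product can bind the mRNA cap itself, was at 222, 232 and 259 CPM in sgCtrl and at 381, 387 and 406 CPM in sg*NF2*-1. It rose to 165% of the sgCtrl mean (log2 fold change 0.72, SE 0.08, adjusted p = 2.1e-07) and was called in all 16 alternative analyses. *EIF3F*, a subunit with an MPN domain, was at 203, 185 and 199.7 CPM against 249, 288 and 292 CPM (0.49, SE 0.08, adjusted p = 5.3e-05). *EIF3L*, a subunit with a PCI domain, was at 118, 138 and 145 CPM against 182, 195 and 186 CPM (0.49, SE 0.09, adjusted p = 8.0e-05). Each of these groups lay clear of the other. Of the exon bases of *EIF3L*, 51.8% also belong to other genes.

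The loosely attached subunit gene *EIF3J* rose by a similar amount (0.48, adjusted p = 4.7e-05). Smaller rises were those of *EIF3G* (0.34), *EIF3B* (0.33), *EIF3E* (0.33), *EIF3H* (0.31) and *EIF3M* (0.30), with adjusted p from 0.0033 to 0.0088. Of these, *EIF3B* was called in all 16 alternative analyses and *EIF3E* and *EIF3H* in 15. The call of *EIF3G* was lost in 5, with 0.27 without sgCtrl replicate 2 and 0.22 without sg*NF2*-1 replicate 3, and that of *EIF3M* in 2, one of them without sgCtrl replicate 2. The scaffold gene *EIF3A* (-0.12) and the genes *EIF3K* (0.18) and *EIF3I* (0.08) did not pass the test. *EIF3I*, for a WD-repeat subunit and with the highest FPKM of the eIF3 genes, was at 398, 412 and 453 CPM in sgCtrl and at 425, 426 and 481 CPM in sg*NF2*-1, with overlapping groups. Subunits of the same complex thus spread from -0.12 to 0.72 on the log2 scale without the near-identical pair described next.

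*EIF3C* and *EIF3CL* are near copies on chromosome 16, and 95.2% of the 100-base words of *EIF3CL* occur in genes elsewhere, mainly *EIF3C*, and 42.9% of those of *EIF3C*, mainly in *EIF3CL*, so the counting could split their reads and their values are uncertain. *EIF3CL* was at 5.39, 4.14 and 4.68 CPM in sgCtrl and at 15.9, 7.19 and 6.25 CPM in sg*NF2*-1 (log2 fold change 1.06, SE 0.25, adjusted p = 0.0020). The high value came from sg*NF2*-1 replicate 1, and without that library the log2 fold change was 0.51 and the adjusted p 0.083. The call of *EIF3CL* was lost in 4 of 16 alternative analyses, that one and the limma fits on FPKM. *EIF3C* was at 17.9, 13.3 and 60.6 CPM against 30.8, 22.5 and 22.0 CPM (-0.28, SE 0.31, adjusted p = 0.52). sgCtrl replicate 3 stood far above the other libraries, and without it the log2 fold change of *EIF3C* was 0.69 (adjusted p = 0.0016). *EIF3C* was called in 2 of the 6 fits that leave out a library, and across these fits it ran from -0.64 to 0.69. No direction can thus be given for it.

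Of the 11 tested eIF4 cap-binding and helicase genes, 0 were higher and 4 were lower (36.4%), against 17.7% and 16.6% of all tested genes. Their median log2 fold change was -0.09, and not all of them encode subunits of the cap-binding complex. The difference from the other roles was not tested. *EIF4E*, for the protein that binds the cap, was at 35.3, 33.4 and 41.1 CPM in sgCtrl and at 28.8, 29.5 and 32.0 CPM in sg*NF2*-1 (log2 fold change -0.28, SE 0.11, adjusted p = 0.043). The groups did not overlap, but the call was lost in 9 of 16 alternative analyses, among them leaving out sgCtrl replicate 3, which gave -0.19. *EIF4A2*, a paralogue of the eIF4A helicase, was at 418, 407 and 416 CPM against 364, 352 and 342 CPM (-0.23, SE 0.08, adjusted p = 0.024). *EIF4G3*, an eIF4G paralogue (-0.28, adjusted p = 0.024), and *EIF4E2*, a cap-binding protein that can repress translation (-0.26, adjusted p = 0.022), also fell. The calls of *EIF4A2*, *EIF4G3* and *EIF4E2* were each lost in 5 of 16 alternative analyses.

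The scaffold gene *EIF4G1* was at 558, 548 and 453 CPM in sgCtrl and at 479.5, 471 and 474 CPM in sg*NF2*-1, with sgCtrl replicate 3 below and the other control libraries above the knockout libraries (-0.13, SE 0.09, adjusted p = 0.26). Without sgCtrl replicate 3 the log2 fold change of *EIF4G1* was -0.22 and passed the threshold (adjusted p = 0.039). *EIF4H*, a cofactor of the helicase and the gene of this group with the highest FPKM, was at 336, 343 and 356 CPM against 383, 393 and 397 CPM (0.18, SE 0.08, adjusted p = 0.077). Its groups were apart without passing the threshold, as were those of the other cofactor gene *EIF4B* (0.20, adjusted p = 0.061). *EIF4A1*, for the main helicase, had only 43 to 64 counts per library, at 3.17, 3.84 and 2.83 CPM against 3.64, 3.30 and 3.72 CPM (0.11, SE 0.24, adjusted p = 0.75). Of its exon bases, 48.6% also belong to 5 other genes, and its level here is uncertain. *EIF4G2* (-0.09), *EIF4A3*, a helicase of the exon junction complex (0.13), and *EIF4E3* (0.08) did not pass the test.

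Among the proteins that sequester eIF4E, the 2 main paralogues moved in opposite directions. *EIF4EBP1* (ENSG00000187840) was at 266, 239 and 281 CPM in sgCtrl and at 568, 586 and 726 CPM in sg*NF2*-1. Every sg*NF2*-1 library had more than the highest sgCtrl library by a wide margin, and the log2 fold change was 1.26 (SE 0.10, adjusted p = 2.5e-10). *EIF4EBP2* (ENSG00000148730) was at 80.1, 93.5 and 93.4 CPM against 53.0, 59.5 and 54.3 CPM. It fell to 62.5% of the sgCtrl mean, with groups apart (log2 fold change -0.68, SE 0.09, adjusted p = 2.2e-06). Both calls held in all 16 alternative analyses, in which *EIF4EBP1* ranged from 1.15 to 1.33 and *EIF4EBP2* from -0.75 to -0.62. *EIF4EBP3* had 14 to 36 counts per library, at 0.888, 1.71 and 1.52 CPM against 1.93, 1.75 and 2.53 CPM (0.59, SE 0.34, adjusted p = 0.20), and 73.4% of its exon bases belong also to a readthrough gene. *EIF4ENIF1*, which carries eIF4E into the nucleus, did not pass the test (0.14).

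Per length, in FPKM, *EIF4EBP1* stood at 231 ± 18.3 (SD, n = 3) in sgCtrl and 549 ± 74.8 in sg*NF2*-1, and *EIF4EBP2* at 11.6 ± 1.01 and 7.19 ± 0.464, so that *EIF4EBP1* was the far more abundant of the pair in both groups. The FPKM of the 3 genes summed over that of *EIF4E* was 104, 100.3 and 94.7 in sgCtrl and 264, 266 and 302 in sg*NF2*-1. All sg*NF2*-1 libraries had the higher ratio, by 1.48 on the log2 scale, with the lowest p that this exact test can give, 0.10 (0.30 adjusted over 6 comparisons). The size of this ratio depends on the merged exon length used for *EIF4E*, 14067 bases, but the difference between groups does not. That difference does depend on the lengths of the summed genes, 1073 bases for *EIF4EBP1*, 7257 for *EIF4EBP2* and 691 for *EIF4EBP3*.

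Of the factors that act around the ribosome itself, *EIF6* and *EIF5A2* rose. *EIF6*, which keeps the large subunit from joining too early and takes part in its assembly, was at 185, 204 and 238 CPM in sgCtrl and at 270.1, 266 and 333 CPM in sg*NF2*-1 (log2 fold change 0.47, SE 0.10, adjusted p = 0.00052). *EIF5A2*, the minor gene for the hypusine-bearing factor that helps the ribosome past stalls in peptide bond formation, was at 27.2, 30.2 and 31.8 CPM against 35.7, 41.7 and 36.0 CPM (0.35, SE 0.11, adjusted p = 0.013). Both were higher in every sg*NF2*-1 library, and the call of *EIF5A2* was lost in 3 of 16 alternative analyses, with 0.29 without sgCtrl replicate 1 and 0.27 without sg*NF2*-1 replicate 2. The major gene *EIF5A* was at 667, 646 and 667 CPM against 664, 672 and 822 CPM (0.12, SE 0.09, adjusted p = 0.30), where sg*NF2*-1 replicate 3 stood above 5 libraries that were close together. The ratio of *EIF5A2* to *EIF5A* in FPKM was 0.0205, 0.0235 and 0.0240 against 0.0271, 0.0312 and 0.0220 and overlapped between the groups (two-sided exact permutation test, p = 0.30, adjusted 0.36). *EIF5AL1* (0.15) and *EIF1AD* (0.21) did not pass the test.

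Of the elongation factor genes, 3 of 4 tested eEF1 genes and *EEF2* rose, and the background of higher genes was again 17.7%. *EEF2* (ENSG00000167658), the GTPase that moves the ribosome by a codon, was at 3380.3, 3597 and 3724 CPM in sgCtrl and at 5359.6, 5616 and 6192 CPM in sg*NF2*-1. The highest sgCtrl library was well below the lowest sg*NF2*-1 library, and the mean rose to 160.4% of sgCtrl (log2 fold change 0.68, SE 0.09, adjusted p = 2.7e-06). Its inhibitory kinase gene *EEF2K* was at 33.8, 29 and 26.2 CPM against 31.5, 33.1 and 29.4 CPM, with overlapping groups (0.08, SE 0.11, adjusted p = 0.63).

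*EEF1A1*, for the factor that brings aminoacyl-tRNA to the ribosome, was at 17993, 17308 and 21039.5 CPM in sgCtrl and at 23036, 22717 and 24524 CPM in sg*NF2*-1 (log2 fold change 0.32, SE 0.10, adjusted p = 0.017). Its groups were apart, although sgCtrl replicate 3 came close to the sg*NF2*-1 libraries, and the call was lost in 5 of 16 alternative analyses, among them leaving out sgCtrl replicate 1 or 2. Its paralogue *EEF1A2* was at 159, 163 and 173 CPM against 178, 208 and 218 CPM (0.28, SE 0.09, adjusted p = 0.011), and its call was lost in 4 of 16, by limma on FPKM and, at 0.26, without sg*NF2*-1 replicate 2. The ratio of *EEF1A2* to *EEF1A1* in FPKM was 0.0107, 0.0114 and 0.00995 against 0.00938, 0.0111 and 0.0107, with no order between the groups (two-sided exact permutation test, p = 0.70, adjusted 0.70). *EEF1B2*, for the β subunit of the exchange factor of eEF1A, was at 259, 252 and 309.7 CPM against 373, 383 and 419 CPM and rose by 0.52 on the log2 scale (SE 0.09, adjusted p = 6.0e-05). *EEF1D*, for the δ subunit, had overlapping groups and did not pass the test (0.18, adjusted p = 0.15).

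By level, *EEF1A1* led with 2992 ± 312 FPKM (SD, n = 3) in sgCtrl, followed by *EEF2* with 839 ± 40.4 FPKM. After *EIF1*, *EIF3I*, *EIF4EBP1* and *EIF5A* stood close together at 231 ± 15.6, 231 ± 18.3 and 222 ± 3.73 FPKM and did not differ beyond their spread. In sg*NF2*-1 the order was *EEF1A1* (3698 ± 145 FPKM), *EEF2* (1334 ± 98.1), *EIF4EBP1* (549 ± 74.8), *EIF1* (389.5 ± 16.9), *EIF3I* (242 ± 17.1) and *EIF5A* (239.9 ± 29.4). In FPKM, *EIF4EBP1* thus moved from among *EIF3I* and *EIF5A* to above *EIF1*. This order depends on the merged exon lengths used, 1073 bases for *EIF4EBP1* and 3623 for *EIF1*. In CPM, which are not divided by length, *EIF1* stayed above *EIF4EBP1*, with means of 956 against 262 in sgCtrl and 1503 against 627 in sg*NF2*-1. The summed FPKM of the 5 eIF2B genes over that of *EIF2S1* to *EIF2S3* was 0.222, 0.235 and 0.235 in sgCtrl and 0.219, 0.206 and 0.229 in sg*NF2*-1, with overlapping groups (two-sided exact permutation test, p = 0.20, adjusted 0.30). The ratio of *EIF4A1* to *EIF4A2* also overlapped (p = 0.20, adjusted 0.30, by the same exact test) and carries the limit of the *EIF4A1* counts given above.

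The other translation genes of a fixed list of 51, of which 49 were tested, showed 18 higher and 3 lower (36.7% and 6.12%, against the same background of 17.7% and 16.6%), with a median log2 fold change of 0.17. Of the genes for diphthamide, the modified histidine of eEF2, 5 of 7 were higher. *DPH2* and *DPH1*, whose products start the synthesis, rose by 0.64 (SE 0.10, adjusted p = 1.9e-05) and 0.52 (SE 0.09, adjusted p = 0.00010) on the log2 scale. *DPH5*, the methyltransferase of the pathway, rose by 0.53 (adjusted p = 0.00039), *DPH6*, its last enzyme, by 0.56 (adjusted p = 0.0031) and *DPH3* by 0.32 (adjusted p = 0.039). The groups of *DPH3* overlapped, and it was called in 2 of the 6 fits that leave out a library (0.25 to 0.46). *EEF2KMT*, which methylates a lysine of eEF2, had the largest rise of the list, from 15.6 ± 1.18 CPM to 27.4 ± 2.37 CPM (0.81, SE 0.12, adjusted p = 7.4e-06). *METTL13*, which methylates eEF1A, rose by 0.25 (adjusted p = 0.040) but was called in 1 of those 6 fits (0.20 to 0.30), and the other 4 methyltransferase genes did not pass the test.

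**Figure D4:**
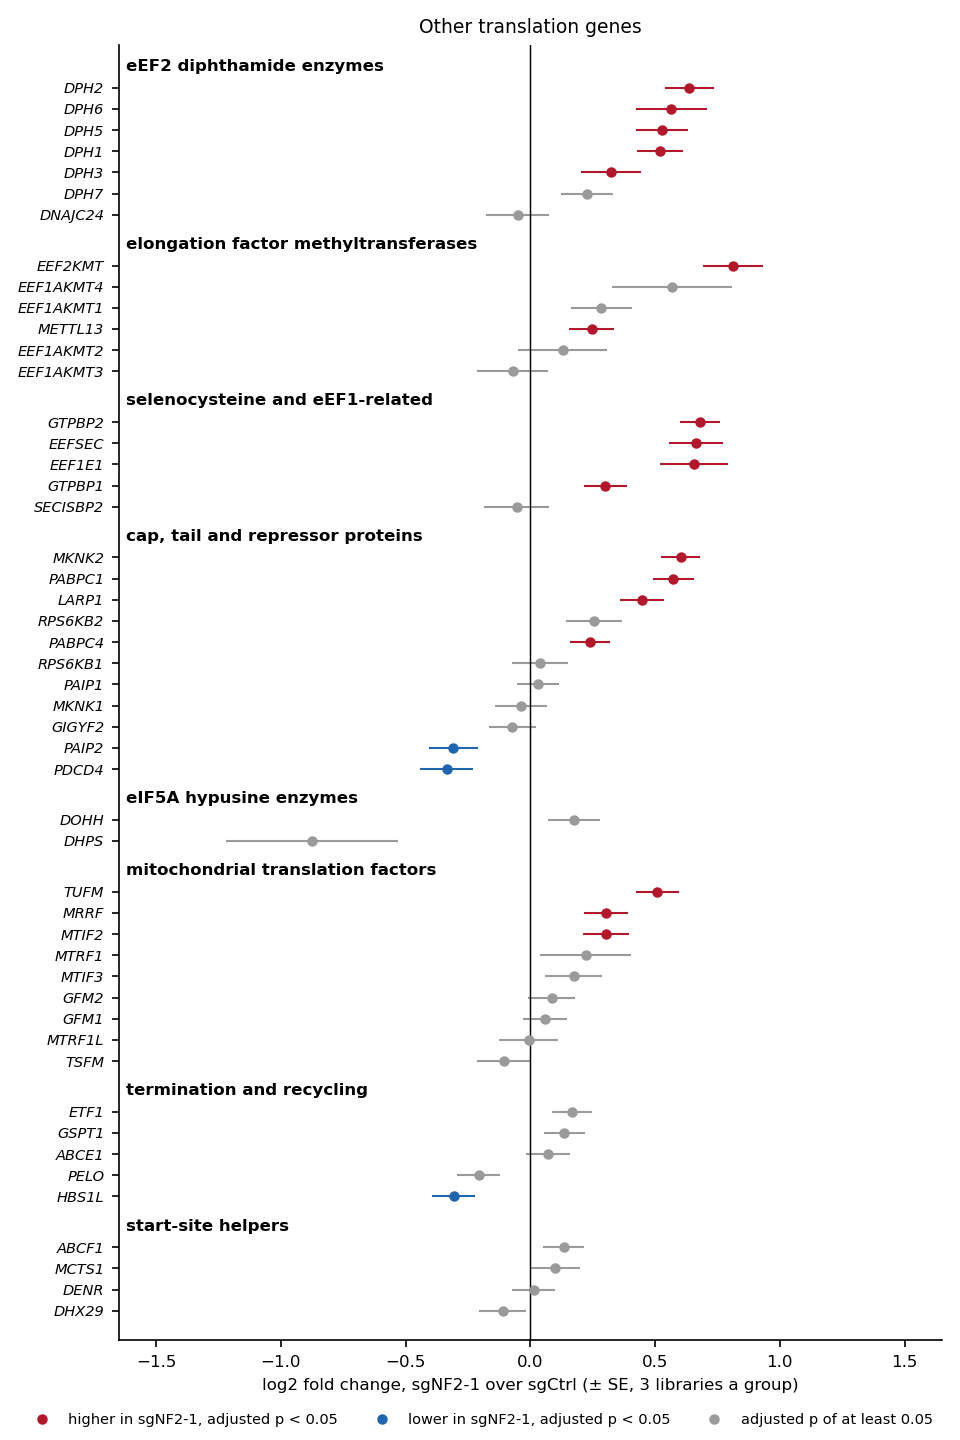
Log2 fold change (sgNF2-1 over sgCtrl, x axis) with its standard error for 49 other translation genes, grouped by role, from 3 libraries a group. Of the 7 diphthamide genes 5 are called higher, EEF2KMT (0.81) lies farthest to the right, and no start-site helper is called.

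Among the genes close to eEF1A in function, *EEFSEC*, the selenocysteine elongation factor, rose from 25.6 ± 2.04 to 40.6 ± 3.77 CPM (log2 fold change 0.66, adjusted p = 3.1e-05). The GTPase genes *GTPBP2* (0.68, adjusted p = 3.7e-07) and *GTPBP1* (0.30, adjusted p = 0.0092) and the tRNA synthetase complex gene *EEF1E1* (0.66, adjusted p = 0.00052) rose as well. Of the proteins at the cap and tail, *MKNK2*, a kinase of eIF4E, rose from 212 ± 3.65 to 322 ± 16.1 CPM (0.60, adjusted p = 1.6e-06). The poly(A)-binding protein gene *PABPC1* rose from 579 ± 17.6 to 862 ± 51.6 CPM (0.57, adjusted p = 6.4e-06). *LARP1*, which binds TOP mRNAs, rose from 250.2 ± 26.9 to 341 ± 18.3 CPM (0.45, adjusted p = 0.00027).

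The eIF4A inhibitor gene *PDCD4* (-0.34, adjusted p = 0.016) and *PAIP2*, an inhibitor of poly(A)-binding protein (-0.31, adjusted p = 0.016), fell, and were called in 3 and 4 of the 6 fits that leave out a library. *HBS1L*, which rescues stalled ribosomes, was the only termination or recycling gene called (-0.31, adjusted p = 0.0079). Of the mitochondrial factors, *TUFM*, the mitochondrial counterpart of eEF1A, rose by 0.51 on the log2 scale (adjusted p = 5.3e-05), and *MRRF* (0.30, adjusted p = 0.0097) and *MTIF2* (0.30, adjusted p = 0.013) also rose, each called in 4 of those 6 fits. The hypusine enzyme gene *DHPS* had 15 to 46 counts per library and went from 2.29 ± 0.713 to 1.25 ± 0.239 CPM without passing the threshold (adjusted p = 0.052). None of 4 start-site helper genes passed the test.

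The 250 bases before each RefSeq start were searched on both strands for CACGTG, the E-box of MYC-type factors, TGATGNAA, the element that ATF4 binds, and GGAATG, the element of TEAD factors, through which YAP acts. The E-box was found for 12 of 50 factors (24%), against 11.4% of the tested genes, with 2 of 17 risen factors, 1 of 6 fallen and 9 of 24 not called. The TEAD element was found for 6 of 50 factors (12%), against 13.1% of the tested genes, and the ATF4 element for 1, *EIF4E3*, against 2.26%. The risen factors without a listed RefSeq start, *EIF4EBP1* among them, could not be searched. The windows below show matches in 5 called factors, with 12 bases to each side and the match in capitals; the reverse complement of GGAATG reads CATTCC.
EIF3F, E-box, 68 bases before the start (chr11:7987257-7987286, plus strand): aaagctctagctCACGTGgtgtatattcag
EIF2B4, TEAD, 66 bases before (chr2:27370074-27370103, minus strand): cggtgacccctcCATTCCtttgatccgccg
EIF5A2, E-box, 187 bases before (chr3:170908807-170908836, minus strand): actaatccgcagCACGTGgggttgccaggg
EIF5A2, E-box, 162 bases before (chr3:170908782-170908811, minus strand): cagggcgctcttCACGTGactgggcggagc
EIF3M, TEAD, 114 bases before (chr11:32583705-32583734, plus strand): cacgccctgctgCATTCCgcggcgagagcg
EIF4E, E-box, 225 bases before (chr4:98929341-98929370, minus strand): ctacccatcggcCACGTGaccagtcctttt
EIF4E, E-box, 72 bases before (chr4:98929188-98929217, minus strand): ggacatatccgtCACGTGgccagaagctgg
The E-box thus stood before factors that rose and before *EIF4E*, which fell. A match is a string of letters and not a measured binding site.

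Several factors share sequence with other genes, and no source gives the strand setting of the counting. Of the 60 factors, 20 share more than 10% of their exon bases with an overlapping gene or of their 100-base words with a gene elsewhere. Called ones among them, beside those named above, were *EEF1A1* (15.3% of words), *EIF2S2* (14.8% of words), *EEF1B2* (17.4% of exon bases), *EIF6* (17.4%), *EIF4A2* (17.9%) and *EIF4E2* (24.2%). Among the 39 tested factors without such sharing, 18 rose and 4 fell, with a median log2 fold change of 0.21. The 3 factors that were not tested were *EIF4E1B*, *EEF1G* and the readthrough gene *EEF1E1-BLOC1S5*. *EIF4E1B* had 0 counts in every library, which still allows an expected count of up to about 3 in each. *EEF1G* is listed at 0 and shares 99.9% of its exon bases with another gene. *EEF1E1-BLOC1S5*, which the rule takes in by its name, had 1 count in all.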

How the data were processed

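The authors sequenced the libraries as read pairs on a NovaSeq and deposited whole-number counts per gene and FPKM values (counts per length and depth). The submitters' processing notes name HISAT2, StringTie 1.3.3b, featureCounts 1.5.0-p3 and hg38. The 60 factors have the starts and ends of GENCODE release 29, from which exon overlap and shared 100-base words were computed.

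From the counts, edgeR 4.0.16 (R 4.3.3) with filterByExpr (minimum count 10, minimum total 15), TMM scaling and a quasi-likelihood fit of the group tested 14179 genes, with Benjamini-Hochberg adjustment. Ratios of FPKM were compared by exact permutation tests. The 16 alternatives were DESeq2 1.42.0, other scalings and filters, protein-coding genes only, a replicate block, each library left out, and limma 3.58.1 on log2(FPKM + 1) or log2(FPKM + 0.1), with a mean of at least 0.5 FPKM or no such filter. The fits were also run on simulated counts whose changes were larger than most reported here, so that run does not bear on small changes.

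The factors and lists were chosen with earlier results of these data known. Values in every library are given for called factors of at least 0.5 on the log2 scale, the 10 largest called changes, a list of central subunits and paralogues, and the highest FPKM in each role. *EIF1AY* is given by its fold change only. Sequences are from RefSeq (GRCh38.p14). A marker gene and a motif window that these rules select are not reported here.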

Additional observations from a re-analysis of the deposited data

How the results depend on the processing

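Against 25 higher and 6 lower factors, limma on log2(FPKM + 1) called 19 and 3, the same with no FPKM filter 10 and 3, and edgeR with no count filter 25 and 3. Leaving out each library in turn gave 19 to 29 higher and 2 to 5 lower factors, 7 to 13 higher and 1 to 2 lower under the study's limits, a median log2 fold change of 0.20 to 0.29, and 15 to 20 higher and 1 to 4 lower genes on the wider list. The 1 lower gene on that list was left without sgCtrl replicate 1 or sg*NF2*-1 replicate 2, and library totals in place of TMM gave 5. Without the factors that share sequence, an alternative added after the values were seen, 4 were higher under the study's limits. The shares of all tested genes called under these alternatives are not given here. Whether the shifts are particular to the factors therefore cannot be told. The cause of these shifts was not tested, except that the last counts fewer factors.

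Of the 57 tested factors and 16 alternatives, 910 values could be had, and 814 kept their direction and side of the threshold, 76 lost a call, 13 gained one and 7 changed sign. Those 7 belong to 5 factors, whose log2 fold changes with a library left out ran from -0.036 to 0.027 for *EIF5*, from -0.075 to 0.011 for *EIF2B1*, from -0.64 to 0.69 for *EIF3C* (positive without sgCtrl replicate 3), from -0.0010 to 0.18 for *EEF2K* and from -0.11 to 0.33 for *EIF4E3*. *EIF3C* was also at 0.0051 with a pseudocount of 0.1. The log2 difference in the ratio of *EEF1A2* to *EEF1A1* ran from -0.093 to 0.030. In all, 11 of the 31 called factors kept their call under every alternative, 10 of them higher, and *EIF4EBP2*.

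Replicate numbers did not pair the libraries, since same-numbered libraries correlated at -0.03, 0.05 and 0.05. With the replicate block the counts were 29 higher and 6 lower factors and 19 higher and 3 lower genes on the wider list. The share of all tested genes called with the block is not given here. Genes with few counts, such as *EIF4A1*, *EIF4EBP3* and *EIF2S3B*, have standard errors of 0.24, 0.34 and 0.19 and allow no statement on small changes.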

Other observations

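*EEF1G*, for the γ subunit of the eEF1A exchange factor, was listed at 0 counts in all 6 libraries, while its partner *EEF1B2* stood at 274 ± 31.5 CPM (SD, n = 3) in sgCtrl. Of the exon bases of *EEF1G*, 99.9% also belong to the overlapping protein-coding gene AP002990.1, to which 44, 46 and 49 reads were assigned in sgCtrl and 30, 23 and 27 in sg*NF2*-1. *EIF4A1*, of whose exon bases 48.6% belong also to other genes, had few counts too, with 50, 63 and 43 reads in sgCtrl and 64, 51 and 53 in sg*NF2*-1. The 13 annotated pseudogenes of *EIF4A1* together had 98 to 128 counts per library, which is 189% to 277% of the counts of *EIF4A1*. For *EEF1A1*, 39 pseudogenes had 1.86% to 2.12% of its counts. These rows cannot be read as the level of eEF1Bγ or eIF4A1 transcripts in these cells, and how reads on shared exons were counted was not tested.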
